A study of Mus musculus with 15 samples.

Results

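The 6 mouse Iroquois homeobox genes, Irx1 to Irx6, were examined in mouse embryonic stem cell-derived optic tissue cultured toward neural retina (NR) or retinal pigment epithelium (RPE). They were taken by gene symbol from the table of the whole experiment, where each had 1 entry, 6 of 23244 entries in all. Every library came from EB5 Rx::GFP+/- embryonic stem cells, in which GFP reports the activity of Rx (Rax), a gene of the early eye field, grown as floating aggregates in SFEBq culture (serum-free culture of embryoid body-like aggregates). The starting material, Day 10 Rx::GFP+, was GFP-positive neuroepithelium cut from the aggregates with forceps at Day 10. Explants were then kept in retinal maturation medium under +Wnt conditions (the GSK3 inhibitor CHIR99201 at 3 µM for 24 h and 1 µM afterwards) or +Fgf conditions (human recombinant bFgf at 5 ng/ml with 10% fetal bovine serum) and collected at Day 12 or Day 15. Since serum was given only with bFgf, the effects of the serum and of bFgf cannot be told apart here, and explants without either stimulation at Day 12 or Day 15 were not analysed here. Each of the 5 groups held 3 libraries of poly(A)-selected RNA, described as biological triplicates, all from this 1 line.

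Iroquois proteins are transcription factors of the TALE superclass, homeodomain proteins with a homeodomain longer than the usual kind by a loop of extra residues. Mammals carry them in a pair of clusters, IrxA (Irx1, Irx2, Irx4) and IrxB (Irx3, Irx5, Irx6), which arose by duplication of an ancestral cluster, so that Irx1 is paired with Irx3, Irx2 with Irx5, and Irx4 with Irx6. They are known for patterning the neural plate, where Irx3 marks territory behind the Six3-positive anterior forebrain and is induced by Wnt signalling. In the retina, Iroquois genes are known from differentiating ganglion cells and, for Irx5 and Irx6, from cone bipolar cells.

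On mm10 (GRCm38), the IrxA cluster spans chr13:71957921-73269608, 1312 kb, with Irx1 at chr13:71957921-71963723 on the minus strand, Irx2 at chr13:72628820-72634198 on the plus strand and Irx4 at chr13:73260479-73269608 on the plus strand. The IrxB cluster spans chr8:91798525-92680956, 882 kb, with Irx3 at chr8:91798525-91802067 on the minus strand, Irx5 at chr8:92357625-92376286 on the plus strand and Irx6 at chr8:92674288-92680956 on the plus strand. The order is the same in both clusters, with the paired genes in matching places. Exons of Irx3 overlap those of Irx3os on the opposite strand and exons of Irx6 overlap those of Gm45505, so without a stated strand setting in the counting, reads of these genes and of their antisense partners cannot be told apart.

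The homeobox region of each gene is shown here as the most conserved in-frame coding stretch of 189 bases shared by the 6 genes, in each gene within 1 coding exon. The length was set in advance and the stretch was placed by identity to Irx1, without a domain annotation. Its ends need not be those of the homeobox. Sequences run 5′ to 3′ in the sense direction from the GENCODE transcripts of GRCm38, and capitals mark the bases that differ from the most alike gene of the other cluster.
Irx1: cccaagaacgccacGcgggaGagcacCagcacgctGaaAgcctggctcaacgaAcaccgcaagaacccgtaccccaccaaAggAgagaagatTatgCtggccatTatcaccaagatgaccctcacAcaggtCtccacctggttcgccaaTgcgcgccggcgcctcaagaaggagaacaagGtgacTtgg
Irx3: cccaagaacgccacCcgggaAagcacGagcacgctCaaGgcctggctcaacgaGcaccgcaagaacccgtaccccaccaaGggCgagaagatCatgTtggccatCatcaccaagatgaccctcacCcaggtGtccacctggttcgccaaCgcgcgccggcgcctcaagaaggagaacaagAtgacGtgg
Irx2: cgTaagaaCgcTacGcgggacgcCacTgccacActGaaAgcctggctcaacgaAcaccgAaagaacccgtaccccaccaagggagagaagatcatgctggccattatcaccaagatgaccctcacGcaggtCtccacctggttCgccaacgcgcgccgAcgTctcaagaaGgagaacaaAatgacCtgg
Irx5: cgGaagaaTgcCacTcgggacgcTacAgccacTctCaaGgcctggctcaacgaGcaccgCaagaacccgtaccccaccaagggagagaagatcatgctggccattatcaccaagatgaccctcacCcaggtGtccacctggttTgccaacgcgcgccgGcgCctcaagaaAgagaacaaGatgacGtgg
Irx4: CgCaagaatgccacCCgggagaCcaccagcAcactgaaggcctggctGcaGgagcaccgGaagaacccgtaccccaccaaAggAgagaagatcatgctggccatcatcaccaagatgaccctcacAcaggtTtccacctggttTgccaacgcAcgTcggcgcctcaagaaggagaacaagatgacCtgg
Irx6: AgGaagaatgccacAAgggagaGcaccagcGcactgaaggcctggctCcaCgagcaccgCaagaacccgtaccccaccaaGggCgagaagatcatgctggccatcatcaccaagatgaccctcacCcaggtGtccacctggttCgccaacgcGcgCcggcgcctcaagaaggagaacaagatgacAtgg
Irx1 and Irx3 shared 173 of 189 bases (91.5%), Irx2 and Irx5 170 (89.9%) and Irx4 and Irx6 172 (91%). For each gene, the most alike gene of the other cluster was its duplication partner. Within IrxB, Irx3 and Irx6 were closer still, with 175 identical bases (92.6%). The stretches lie at chr13:71959983-71960171 (Irx1), chr8:91800487-91800675 (Irx3), chr13:72630673-72630861 (Irx2), chr8:92359636-92359824 (Irx5), chr13:73267532-73267720 (Irx4) and chr8:92677245-92677433 (Irx6).

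Levels are the deposited values in CPM (reads scaled to a common library size, as normalized by the authors). One read was worth 0.0620 to 0.0764 CPM, libraries held 12556998 to 16175450 recovered reads, and all values were whole multiples of 1 read within a tolerance of 0.02. Differences were tested with limma on log2(CPM + 0.3) over 13845 genes, with Benjamini-Hochberg adjustment over all of them, and a gene was called at an adjusted p under 0.05. Fold changes given with a log2 difference or with an adjusted p are on that scale and understate the change of low genes. These tissues differed widely, and between 47.9% and 79.8% of all genes tested were called in the 9 contrasts, so a call by itself sets no gene apart. In RNA of whole explants, fewer cells of a type cannot be told apart from less RNA per cell.

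Markers of the labelled tissues separated the groups at Day 15. All 8 retinal progenitor genes listed were lower in Day 15 +Wnt than in Day 15 +Fgf, beside 38.0% of all genes tested. The median log2 differences of the progenitor and RPE lists were -4.54 and 3.95, against -0.05 over all genes. Of 11 RPE genes listed, 9 passed the filter and all 9 were higher in Day 15 +Wnt, beside 30.6% of all genes tested, and the summed level of the list was 6087.5 to 8054.8 CPM against 241.1 to 423.3 CPM.

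Irx1 and Irx3 fell by Day 12 in +Fgf and were highest in Day 15 +Wnt. Irx2, Irx4, Irx5 and Irx6 were highest in Day 15 +Fgf, and Irx4 and Irx6 reached 1 CPM in no library of the other 4 groups. Of these 4 genes, Irx4 and Irx5 were called lower in Day 12 +Fgf than at Day 10, and Irx2 and Irx6 were not. RNA integrity, as listed in the study, was lower in each Day 15 +Fgf library than in every Day 12 and Day 15 +Wnt library. With it as a covariate, the log2 differences from Day 12 to Day 15 in +Fgf were 1.73 (Irx1), 2.64 (Irx2), 1.07 (Irx3), 3.79 (Irx4), 2.57 (Irx5) and 3.33 (Irx6), with limma adjusted p between 9.48e-05 (Irx4) and 0.0386 (Irx3). Irx4 and Irx6 were tested only through Day 15 +Fgf, so their results in this comparison were close to given by the filter.

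**Figure D1:**
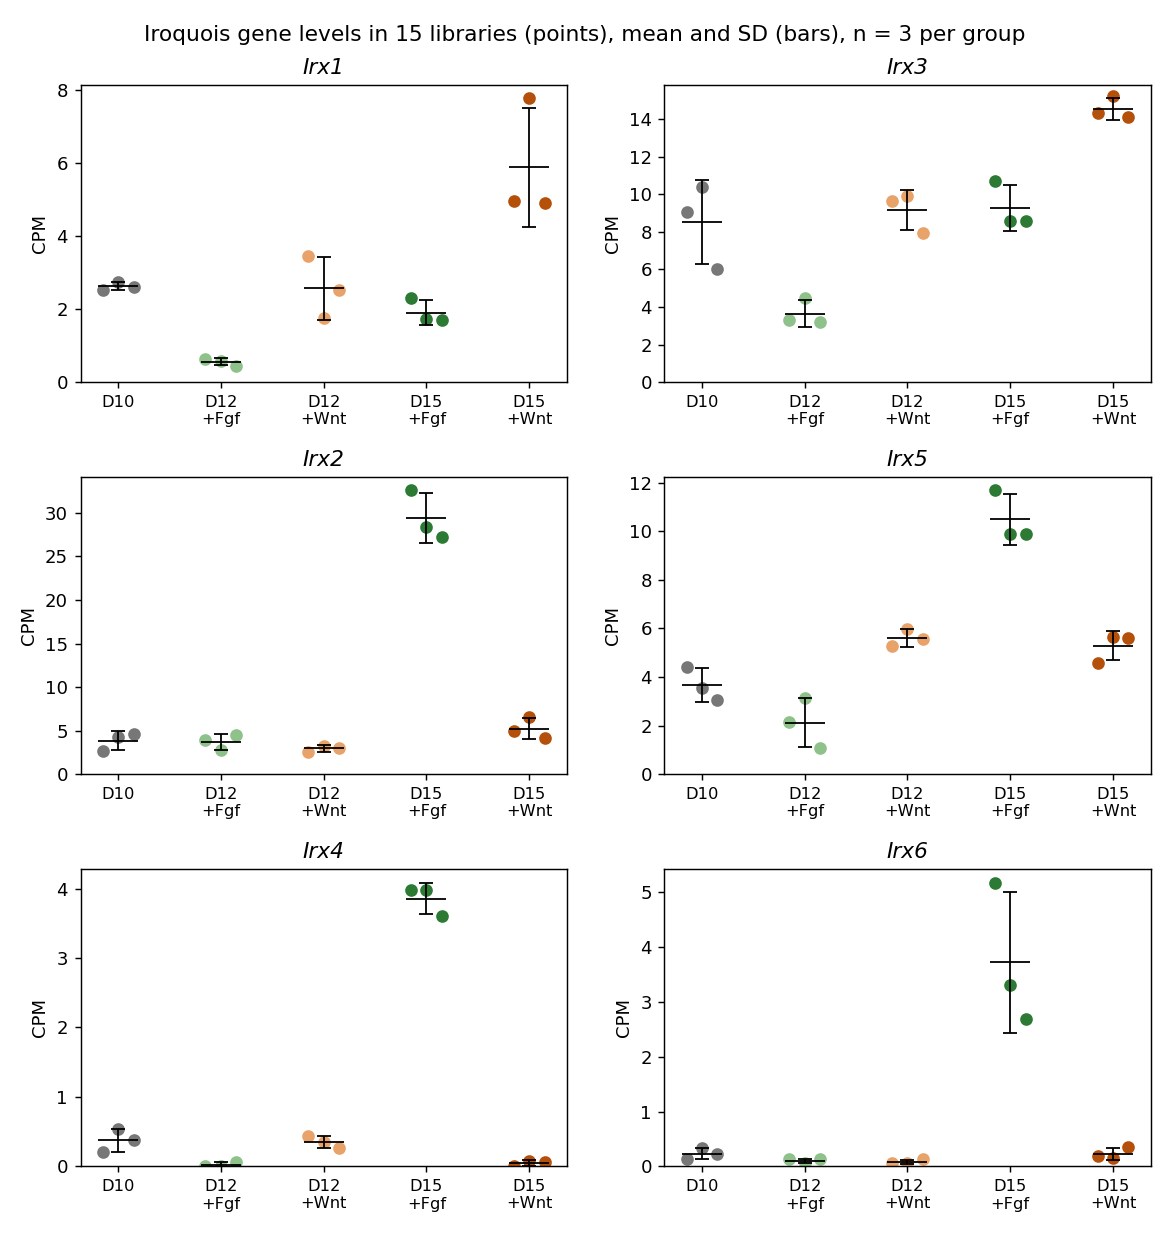
Level of each Iroquois gene in CPM (linear y axes from 0, a separate scale per gene) in the 15 libraries, by group on the x axis, where D10 is Day 10 Rx::GFP+. Points are libraries, horizontal bars are means and whiskers are SD (n = 3). Irx1 and Irx3 are highest in Day 15 +Wnt, and the other 4 genes in Day 15 +Fgf.

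Irx1, the first gene of IrxA, was at 2.52, 2.74 and 2.60 CPM in the Day 10 libraries and at 0.634, 0.573 and 0.447 CPM in Day 12 +Fgf. The groups did not overlap, and the mean went from 2.62 ± 0.112 to 0.551 ± 0.0952 CPM (SD, n = 3), a log2 difference of -1.78 ± 0.23 (SE, limma adjusted p = 6.48e-06). In Day 12 +Wnt the libraries lay at 3.46, 1.74 and 2.52 CPM, on both sides of Day 10, and the difference from Day 10 did not pass the test (log2 difference -0.07 ± 0.23, limma adjusted p = 0.813). By Day 15, Irx1 had risen under both conditions. The +Fgf libraries reached 2.29, 1.72 and 1.70 CPM, 2.58-fold over Day 12 +Fgf (limma adjusted p = 8.11e-05), and the +Wnt libraries 4.96, 7.76 and 4.91 CPM, 2.17-fold over Day 12 +Wnt (limma adjusted p = 3.61e-04). As ratios of reads with depth taken into account, these rises were 3.43 in +Fgf and 2.23 in +Wnt. All 3 Day 15 +Wnt libraries were above all 12 others, and replicate 2 stood highest. The increase from Day 12 to Day 15 did not differ detectably between conditions (log2 difference of the increases -0.25 ± 0.32, limma adjusted p = 0.555), and Irx1 was higher in +Wnt than in +Fgf at Day 12 (1.72 ± 0.23, adjusted p = 8.55e-06) and at Day 15 (1.47 ± 0.23, adjusted p = 2.39e-05).

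Irx3, the partner of Irx1 and the gene of the family best known for its link to Wnt signalling in the neural plate, was at 9.06, 10.4 and 6.04 CPM at Day 10. In Day 12 +Fgf it was at 3.30, 4.46 and 3.19 CPM, below every Day 10 library (log2 difference -1.13 ± 0.17, limma adjusted p = 4.34e-05). Day 12 +Wnt held 9.62, 9.88 and 7.94 CPM, within the spread of Day 10, and the difference did not pass the test (0.13 ± 0.17, limma adjusted p = 0.53). At Day 12, Irx3 was 2.41-fold higher in +Wnt than in +Fgf (limma adjusted p = 1.26e-05), with the +Fgf libraries below the Day 10 range and the +Wnt libraries within it. From Day 12 to Day 15, Irx3 went up to 10.7, 8.58 and 8.55 CPM in +Fgf, 2.44-fold (limma adjusted p = 9.73e-06), overlapping the Day 10 libraries again. In Day 15 +Wnt it reached 14.3, 15.2 and 14.1 CPM, above all 12 other libraries. That level was 1.58-fold that of Day 12 +Wnt (limma adjusted p = 0.00311), 1.73-fold that of Day 10 (adjusted p = 5.38e-04) and 1.56-fold that of Day 15 +Fgf (adjusted p = 0.00381). With RNA integrity as a covariate, the last of these was not called (log2 difference 0.84, adjusted p = 0.05). The increase was smaller in +Wnt than in +Fgf by 0.63 ± 0.25 on the log2 scale (limma adjusted p = 0.0459), a call that was lost in 15 of 26 alternative analyses.

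Irx2, the middle gene of IrxA, was not called different from Day 10 at Day 12. Its libraries held 2.66, 4.28 and 4.66 CPM at Day 10, then 3.99, 2.74 and 4.47 CPM in Day 12 +Fgf and 2.58, 3.27 and 3.05 CPM in Day 12 +Wnt. These groups overlapped, and neither Day 12 group passed the test against Day 10 (log2 differences -0.04 ± 0.21 and -0.32 ± 0.21, limma adjusted p = 0.895 and 0.199). Day 15 +Fgf held 32.6, 28.4 and 27.2 CPM, every library above the highest of all other groups. The rise from Day 12 was 7.47-fold (limma adjusted p = 8.53e-09). In Day 15 +Wnt the libraries were at 5.02, 6.56 and 4.14 CPM, 1.68-fold over Day 12 +Wnt (limma adjusted p = 0.00492). The rise in +Wnt was smaller than that in +Fgf by 2.15 ± 0.30 on the log2 scale (limma adjusted p = 1.90e-05). At Day 15, Irx2 was 5.43-fold lower in +Wnt than in +Fgf (adjusted p = 2.53e-08).

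Irx5, the partner of Irx2 and a gene known from cone bipolar cells, was at 4.43, 3.54 and 3.06 CPM at Day 10. Day 12 +Fgf held 2.15, 3.12 and 1.09 CPM, lower by a log2 difference of -0.80 ± 0.24 (limma adjusted p = 0.00956), though its replicate 2 lay above the lowest Day 10 library. Without replicate 3 of Day 12 +Fgf, the lowest, the difference was -0.44 and was not called (adjusted p = 0.0565). Day 12 +Wnt held 5.28, 5.99 and 5.56 CPM, all above Day 10, and Irx5 was the 1 gene of the family called in this comparison (0.58 ± 0.24, limma adjusted p = 0.0436). That call was lost in 14 of 25 alternatives. In Day 15 +Fgf the libraries rose to 11.7, 9.89 and 9.89 CPM, 4.75-fold over Day 12 +Fgf (limma adjusted p = 6.12e-07) and above every other library. Day 15 +Wnt held 4.59, 5.67 and 5.61 CPM, overlapping its Day 12 level (-0.08 ± 0.24, limma adjusted p = 0.771). So the difference between conditions turned over: Irx5 was 2.60-fold higher in +Wnt at Day 12 (adjusted p = 1.28e-04) and 1.93-fold lower in +Wnt at Day 15 (adjusted p = 0.00199), and the test of that turn gave -2.33 ± 0.34 (adjusted p = 2.87e-05).

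Irx4, at the far end of IrxA and known as a factor of the heart ventricle and of retinal ganglion cells, was counted by few reads outside Day 15 +Fgf. There were 3, 8 and 5 reads at Day 10, 0, 0 and 1 in Day 12 +Fgf, 7, 5 and 4 in Day 12 +Wnt and 0, 1 and 1 in Day 15 +Wnt. Day 15 +Fgf held 54, 58 and 51 reads, or 3.86 ± 0.219 CPM (SD, n = 3). With depth taken into account, the 163 reads of Day 15 +Fgf against 1 read of Day 12 +Fgf gave a ratio of 181.7, with an exact 95% counting interval of 32.2 to 7221.1, and Day 15 +Wnt stood at 0.0118 of Day 15 +Fgf (interval 0.00142 to 0.0435). The intervals cover counting error only. Among the low groups, Irx4 fell from Day 10 in Day 12 +Fgf (limma adjusted p = 0.00195), was level with Day 10 in Day 12 +Wnt (16 reads in each group), where it was above Day 12 +Fgf (ratio 16.6, interval 2.58 to 696.9, limma adjusted p = 0.00256), and fell in +Wnt from Day 12 to Day 15 (limma adjusted p = 0.00399). At 2 reads, Day 15 +Wnt was 0.122 of Day 10 (interval 0.0136 to 0.519).

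Irx6, at the far end of IrxB and known from cone bipolar cells, had 2, 5 and 3 reads at Day 10, 2, 1 and 2 in Day 12 +Fgf, 1, 1 and 2 in Day 12 +Wnt and 3, 2 and 5 in Day 15 +Wnt. None of these 12 libraries exceeded 5 reads. In Day 15 +Fgf it had 70, 48 and 38 reads, 3.71 ± 1.29 CPM (SD, n = 3), a ratio of 34.8 to Day 12 +Fgf (interval 14.6 to 108.6) and of 15.8 to Day 10 (interval 8.35 to 33.5). Replicate 1 was the highest of its group here, as it was for Irx1, Irx2, Irx3 and Irx5. Irx6 showed no detectable fall by Day 12 in +Fgf, where 5 reads stood against 10 at Day 10 (ratio 0.453, interval 0.122 to 1.46). That interval overlaps the one of Irx4 (0.00135 to 0.365), and a difference between these genes was not tested. Irx4 and Irx6 passed the filter of 1 CPM in 3 libraries only through Day 15 +Fgf, so that a call in that group was close to given by the filter and is not counted as support for a shared pattern.

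Set side by side, the genes called in each comparison were as follows. In Day 12 +Fgf against Day 10, 4 of 6 were lower (Irx1, Irx3, Irx4 and Irx5), where 55.7% of all genes tested were called and 27.8% were lower, and the median log2 difference of the 6 was -0.92 against -0.00 over all genes. In Day 12 +Wnt against Day 10, 1 of 6 was called, Irx5, which was higher, beside 60.2% of all genes called and 30.6% higher. The change from Day 12 to Day 15 in +Fgf had all 6 higher, Irx4 and Irx6 being tested only through Day 15 +Fgf, beside 57.1% of genes called and 27.2% higher, with a median of 2.57 against -0.02. The same step in +Wnt had Irx1, Irx2 and Irx3 higher and Irx4 lower, beside 68.0% called, 32.5% higher and 35.5% lower, with a median of 0.54, but under quantile normalization Irx1 (0.50), Irx2 (0.11) and Irx3 (0.38) were not called and Irx5 was called lower (-0.68). In +Wnt against +Fgf, 4 of 6 were higher at Day 12 (51.5% called, 25.2% higher, median 1.14), and at Day 15 Irx1 and Irx3 were higher and the other 4 lower (68.7% called, 30.6% higher and 38.0% lower, median -1.70). Against Day 10, Day 15 +Fgf had 4 of 6 higher (72.6% called, 36.2% higher) and Day 15 +Wnt had Irx1 and Irx3 higher and Irx4 lower (79.8% called, 39.6% higher and 40.2% lower), where quantile normalization left Irx1 (0.24) and Irx3 (0.32) uncalled. In the difference between conditions in the change from Day 12 to Day 15, 5 of 6 were called (all but Irx1), each with a lower change in +Wnt than in +Fgf, beside 47.9% of genes called and 27.0% in that direction. Irx4 and Irx6 are also in the counts of the other comparisons with Day 15 +Fgf and of the difference of the changes. They were tested only through that group, so their calls there were close to given by the filter. The medians of 2.57 and -1.70 include them. Apart from them, Irx2 and Irx5 were higher in Day 15 +Fgf than at Day 10, and Irx1 and Irx3 were not called. The comparisons share groups, so their counts are not independent of each other.

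**Figure D2:**
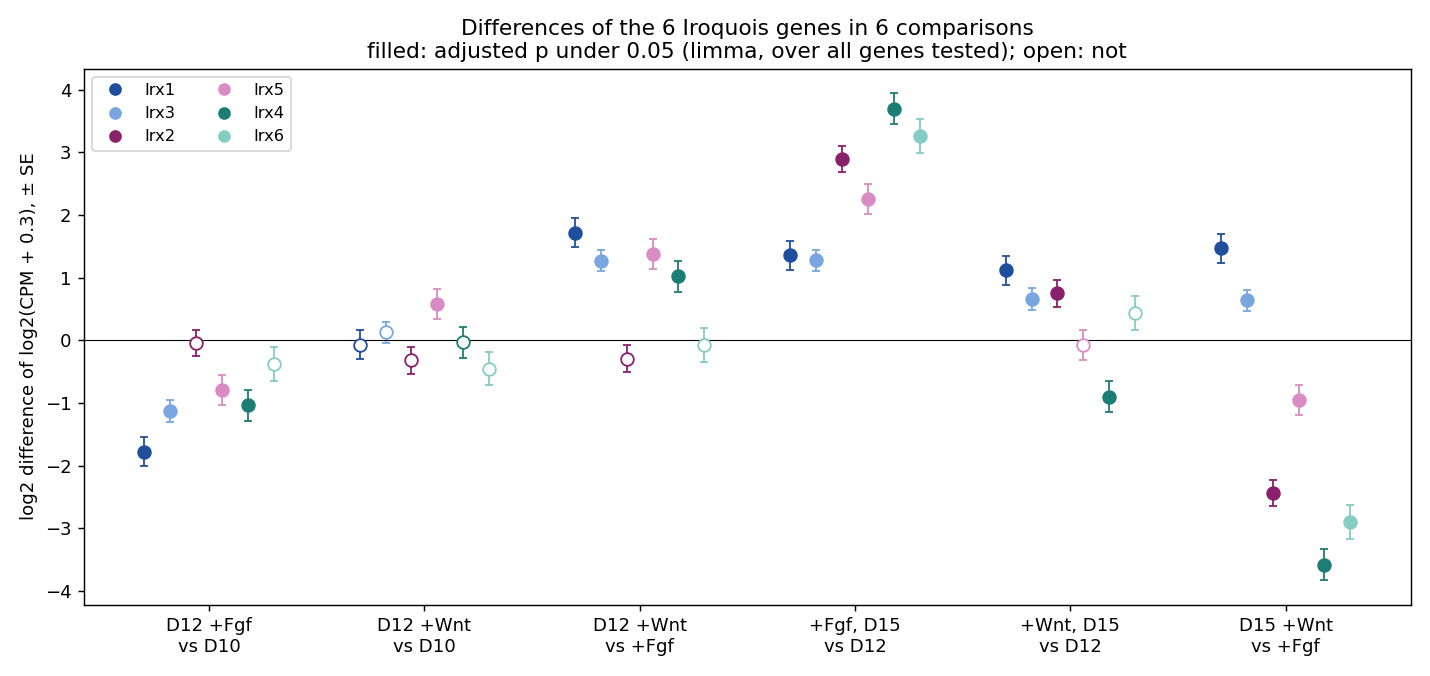
Difference of each Iroquois gene in log2(CPM + 0.3), with its SE, in 6 comparisons (x axis, later over earlier day or +Wnt over +Fgf), where D10, D12 and D15 are days. Filled points are called (adjusted p under 0.05 over all genes tested) and open points are not. All 6 genes lie above 0 from Day 12 to Day 15 in +Fgf, and at Day 15 the +Wnt against +Fgf differences run from 1.47 (Irx1) to -3.58 (Irx4). Irx4 and Irx6 were tested only through Day 15 +Fgf, so their directions in comparisons with that group were close to given by the filter.

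Per length of transcript, which allows levels to be compared between genes, the 6 genes summed to 7.38 ± 0.892 CPM per kb at Day 10 (SD, n = 3), 3.89 ± 0.321 in Day 12 +Fgf, 7.99 ± 0.413 in Day 12 +Wnt, 22.3 ± 2.52 in Day 15 +Fgf and 12.0 ± 1.45 in Day 15 +Wnt. Irx3 led the family at Day 10 and in both +Wnt groups, with 41.4% ± 6.72, 41.6% ± 2.85 and 44.3% ± 3.42 of the sum. In Day 15 +Fgf, Irx2 made up 50.4% ± 0.838, Irx5 19.3% ± 0.425 and Irx3 15.2% ± 0.385, and each of these ranges lay apart from the next. Irx4 and Irx6 held 6.73% ± 0.572 and 4.87% ± 1.12 there and less than Irx1 in every other group. In Day 12 +Fgf, Irx2 (37.2% ± 11.6) and Irx3 (34.0% ± 4.13) did not differ beyond their spread. The same held for Irx2 and Irx5 at Day 10, at 20.2% ± 6.68 and 20.4% ± 3.85.

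**Figure D3:**
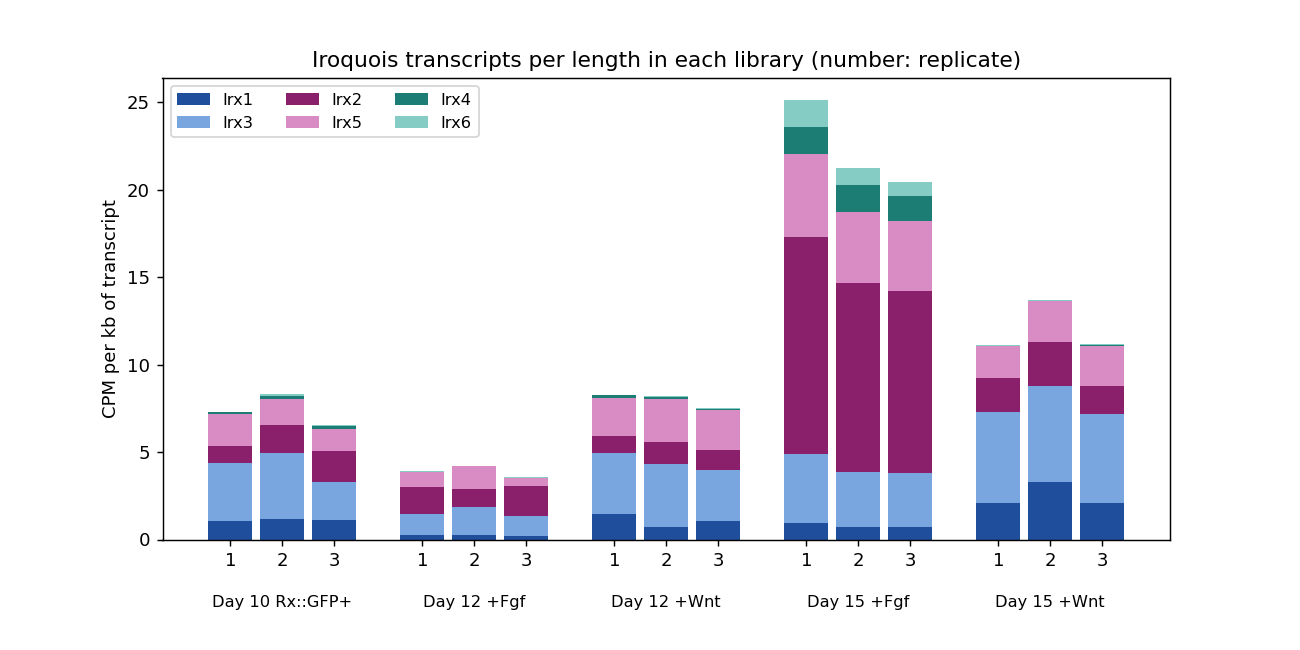
Stacked level of the 6 Iroquois genes in CPM per kb of transcript (y axis, from 0) in each of the 15 libraries, numbered by replicate within each group. The sums are lowest in Day 12 +Fgf (3.56 to 4.20) and highest in Day 15 +Fgf (20.4 to 25.1), where Irx2 is the largest share.

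Along the chromosome, the 2 clusters can be compared at Day 15. In each, the first gene was higher in +Wnt than in +Fgf (Irx1 by 1.47 ± 0.23 and Irx3 by 0.64 ± 0.17 on the log2 scale, SE) and the middle gene was lower (Irx2 by -2.44 ± 0.21, Irx5 by -0.95 ± 0.24), each with an adjusted p of 0.00381 or less by limma. The last genes stood lowest, at -3.58 ± 0.25 for Irx4 and -2.90 ± 0.27 for Irx6, but both were tested only through Day 15 +Fgf, so their direction here was close to given by the filter and is a description. At Day 12, both of Irx1 and Irx3 were called higher in +Wnt, and of the other pairs 1 gene each (Irx5 and Irx4).

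Genes around the clusters were given whatever their values. The long noncoding RNA gene Gm20554, at chr13:72626213-72628564 next to Irx2 and picked out after its values were seen, was at 0.615 ± 0.192 CPM in Day 12 +Fgf, 3.00 ± 0.112 in Day 15 +Fgf and 0.788 ± 0.460 in Day 15 +Wnt (SD, n = 3). Like Irx2, it rose in +Fgf from Day 12 to Day 15 (log2 difference 1.87) and was lower in Day 15 +Wnt (-1.69). It reached 1 CPM in all 3 libraries only in Day 15 +Fgf, so both directions were close to given by the filter and are a description. D730050B12Rik, also inside IrxA, was listed at 0 in every library. Beyond the clusters, Adamts16, which encodes a secreted metalloproteinase, rose in all conditions, from 0.311 ± 0.133 CPM at Day 10 to 22.2 ± 1.03 in Day 15 +Wnt. Fto, beside Irx3 and known for enhancers that act on Irx3, ranged from 125.6 ± 2.38 CPM in Day 12 +Fgf to 148.7 ± 2.40 in Day 15 +Fgf. Between +Wnt and +Fgf at Day 15, the log2 differences beyond Irx4 were 0.02 for Ndufs6, -0.22 for Mrpl36 and -0.63 for Lpcat1 (limma adjusted p = 0.832, 0.0158 and 4.12e-08). Beyond Fto, they were -0.29 for Rpgrip1l and -0.40 for Aktip (limma adjusted p = 0.0043 and 2.92e-05). Mmp2, a matrix metalloproteinase gene, and Lpcat2, both beyond Irx6, were higher in Day 15 +Wnt (0.64 and 0.98, limma adjusted p = 4.95e-04 and 0.00135). Lpcat2 reached 1 CPM in all 3 libraries only in that group, which bears on its direction. The remaining neighbours 8030423J24Rik, 1700100L14Rik and Capns2 had at most 2 reads in any library.

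**Figure D4:**
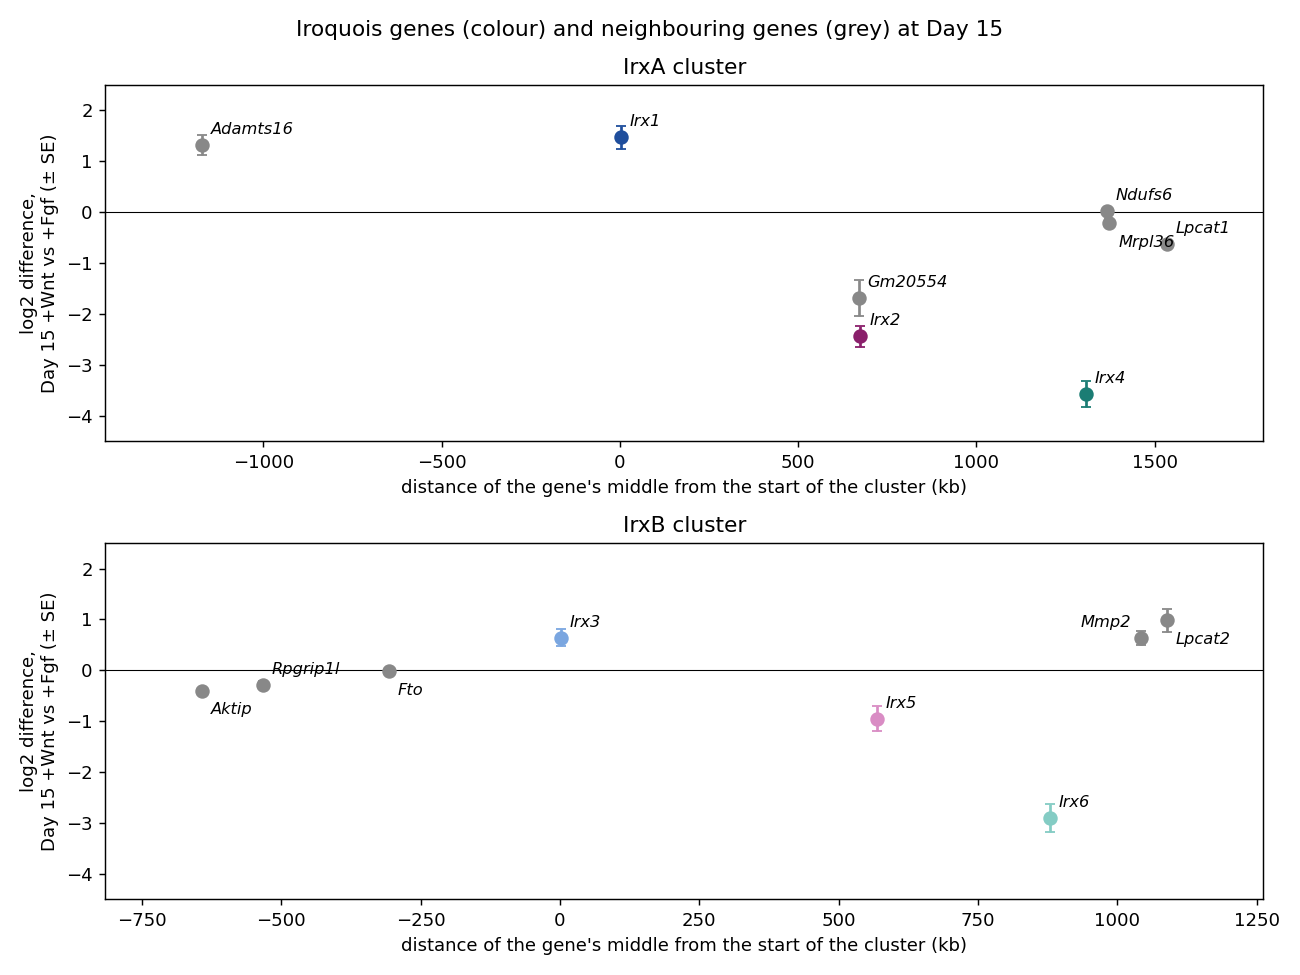
Log2 difference between Day 15 +Wnt and Day 15 +Fgf, with its SE (y axis), for the Iroquois genes (coloured) and neighbouring genes that were tested (grey), against the distance in kb of each gene's middle from the start of its cluster (x axis). In both clusters the values step down from the first Iroquois gene (1.47 and 0.64) to the last (-3.58 and -2.90). The last genes, Irx4 and Irx6, were tested only through Day 15 +Fgf, so their low values were close to given by the filter.

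Likeness over the 15 libraries was measured as the root mean square difference of log2(CPM + 0.3) values, each gene centred on its mean, so that a small value means a similar course in direction and size. Among the members, Irx1 and Irx3 were each other's nearest (0.43), Irx4 was nearest to Irx6 (0.52) and Irx6 to Irx2 (0.33). Irx5 was nearer to Irx3 (0.58) than to its partner Irx2 (0.91). The farthest pair was Irx1 and Irx4 (1.64). The compressed scale of low genes bears on the values of Irx4 and Irx6, and on those of Nrl, Samsn1, Npvf and Col10a1 below, which reached at most 10 reads outside Day 15 +Fgf. All of these genes passed the filter only through Day 15 +Fgf, so their nearness to each other was close to given by the filter. For Irx2, which is not among them, a small value to such a gene means a like size on this scale only. Among all genes tested, those nearest to Irx1 were Fam212b (0.31), Cobl (0.33) and Gpr146 (0.34), and to Irx3 Hs6st3 (0.20), Peli3 (0.27) and Dnm1 (0.27). Nearest to Irx2 were Prkch (0.29), Nrl (0.30), a photoreceptor transcription factor gene, and Samsn1 (0.35), and to Irx5 Dlc1 (0.34), Dll1 (0.35), which encodes a Notch ligand, and Epha10 (0.37). Among the nearest to Irx4 were Col10a1 (0.43) and Npvf (0.52), a neuropeptide gene, and among those nearest to Irx6 were Npvf (0.20) and Samsn1 (0.30).

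The TALE superclass also holds the Meis, Pbx, Pknox, Tgif and Mkx genes, several of which encode cofactors of other homeodomain proteins. All 12 genes listed were tested, and from Day 12 to Day 15 in +Fgf, 3 rose and 5 fell with a median log2 difference of -0.07 (all genes, -0.02). Of the 4 Iroquois genes tested through other groups as well, 4 rose, where 57.1% of all genes tested were called and 27.2% were higher. At Day 15, 2 of these 12 TALE genes were higher and 6 lower in +Wnt, beside 30.6% and 38.0% of all genes tested. Those past a log2 difference of 1 were Meis1, a Pbx partner, at 129.9 ± 7.92 CPM in +Fgf and 43.1 ± 0.807 in +Wnt (SD, n = 3), and Pknox2, at 21.8 ± 1.46 in +Fgf and 48.9 ± 3.24 in +Wnt. At Day 12, 3 of the 12 were higher and 7 lower in +Wnt, where 51.5% of all genes tested were called and 25.2% were higher.

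Readouts of the pathways stimulated moved with the Day 12 differences of Irx1, Irx3, Irx4 and Irx5. Of 13 Wnt/β-catenin feedback targets tested, 9 were higher and 2 lower in Day 12 +Wnt than in Day 12 +Fgf, led by Axin2 (2.69) and Sp5 (2.14) on the log2 scale, while Lgr5 (-2.85) and Bambi (-1.24) were lower, with a median of 0.97 against 0.00 over all genes. Axin2, a negative regulator of the pathway, stood at 81.5 ± 4.61 CPM at Day 10, 29.4 ± 9.31 in Day 12 +Fgf and 184.5 ± 12.6 in Day 12 +Wnt (SD, n = 3), so it went above Day 10 in +Wnt where Irx1 and Irx3 did not detectably do so. In Day 15 +Fgf it was at 15.8 ± 6.97, lower than at Day 12, where Irx1 and Irx3 were higher. At Day 15, 9 targets were higher and 4 lower in +Wnt, beside 30.6% and 38.0% of all genes tested. Of 12 Fgf/MAPK feedback targets, 12 were higher in Day 12 +Fgf than at Day 10, 11 were lower in Day 12 +Wnt than in Day 12 +Fgf, led by Etv5 (-2.83) and Etv4 (-2.76), with a median of -1.83, and at Day 15, 10 were lower and 2 higher in +Wnt. Of all genes tested, 51.5% were called between the conditions at Day 12 (25.2% higher in +Wnt) and 55.7% in Day 12 +Fgf against Day 10. The part of either pathway in the levels of the Iroquois genes was not tested.

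Regional factors also differed. Of 21 tested genes of the diencephalon, midbrain and hindbrain (28 listed), 13 were higher and 5 lower in Day 12 +Wnt than in Day 12 +Fgf, with a median log2 difference of 1.16. The largest were Tal2 (3.61), Lmx1a (2.96), Wnt8b (2.79) and Wnt3a (2.65) on the higher side and Gata3 (-2.78), Pax8 (-2.42), Pax2 (-2.26) and Gbx2 (-1.86) on the lower, as log2 differences. At Day 15, 11 were higher and 4 lower. Of all genes tested, 25.2% were higher in +Wnt at Day 12 (51.5% called), and 30.6% were higher and 38.0% lower at Day 15. Of 12 tested eye field and anterior forebrain factors (14 listed), 8 were lower and 3 higher in +Wnt at either day, with a median of -1.12 at Day 12. Six3, known to repress Irx3 in the neural plate, was at 185.7 ± 14.6 CPM at Day 10, 209.8 ± 21.5 in Day 12 +Fgf, 73.5 ± 6.79 in Day 12 +Wnt, 300.4 ± 24.6 in Day 15 +Fgf and 29.5 ± 0.850 in Day 15 +Wnt (SD, n = 3). The part of Six3 in the level of Irx3 was not tested.

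Markers of cell types moved with the Day 15 levels as well. All 11 genes listed as markers of retinal ganglion cells rose in +Fgf from Day 12 to Day 15 and all 11 were lower in Day 15 +Wnt than in Day 15 +Fgf, with median log2 differences of 3.03 and -2.02. Of all genes tested, 27.2% were higher in the first comparison and 38.0% lower in the second. The sums that follow are of these 11 genes. Their summed level was 107.8 to 136.8 CPM at Day 10, 182.9 to 195.2 in Day 12 +Fgf, 250.0 to 356.8 in Day 12 +Wnt, 1418.8 to 1683.7 in Day 15 +Fgf and 613.6 to 760.1 in Day 15 +Wnt. Of the Day 15 +Wnt sum, Stmn2 gave 238.4 ± 26.0, Gap43 194.3 ± 21.3, Elavl4 94.4 ± 14.6 and Ebf3 93.3 ± 24.9 CPM (SD, n = 3). Isl1 gave 0.644 ± 0.389 and Sncg 2.08 ± 0.404 CPM of it. Atoh7, the proneural gene of ganglion cells, was at 102.2 ± 16.2 CPM in Day 15 +Fgf and at 0 to 2 reads in Day 15 +Wnt, and Pou4f2, a ganglion cell factor, at 82.1 ± 4.80 and 1.53 ± 0.790 CPM. Both were higher in Day 12 +Fgf than at Day 10 (log2 differences 4.54 and 5.01, limma adjusted p = 6.56e-09 and 2.65e-09), at 11.9 ± 1.73 and 12.6 ± 3.69 CPM against at most 10 and 2 reads at Day 10. Of the whole list, 8 of 11 were higher and 1 lower in Day 12 +Fgf than at Day 10, where 55.7% of all genes tested were called and 27.8% were lower. In Day 12 +Wnt, 7 were higher and 4 lower (Pou4f2, Atoh7, Isl1 and Sncg) than in Day 12 +Fgf, where 51.5% of all genes tested were called and 25.2% were higher. The summed level was higher in Day 12 +Wnt although these 4 genes were lower, so the sums are not read as amounts of ganglion cells. The part of ganglion cells in the rise of Irx2, Irx4, Irx5 and Irx6 was not tested.

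Markers of bipolar cells, where Irx5 and Irx6 are known, were low or absent in part. Vsx1 had 2 to 6 reads in Day 12 +Fgf, 6 to 24 in Day 15 +Fgf (1.01 ± 0.693 CPM) and none in Day 15 +Wnt, Grm6 was listed at 0 in Day 15 +Fgf, and Cabp5 had at most 1 read in any library. Of the 9 bipolar genes, 4 were tested (Trpm1, Isl1, Prkca and Bhlhe23), of which 3 rose and 1 fell from Day 12 to Day 15 in +Fgf (median 1.64). Of all genes tested, 57.1% were called in that step and 27.2% were higher. Bhlhe23 went from 0.254 ± 0.109 to 3.33 ± 0.618 CPM (SD, n = 3), to a level near that of Irx6 in CPM, which is not per length. It was tested only through Day 15 +Fgf, so its rise and its place among those that rose were close to given by the filter. The list summed to 196.4 to 213.5 CPM in Day 15 +Fgf, of which Isl1, also a ganglion cell gene, gave 108.8 ± 9.52 CPM, and to 1812.2 to 2272.5 CPM in Day 15 +Wnt, of which Trpm1, a gene that RPE and melanocytes also express, gave 1991.9 ± 233.6 CPM (SD, n = 3). Among other cell types, 5 of 7 tested neural crest and mesenchyme genes were higher in Day 15 +Wnt (summed level 201.9 to 234.3 CPM against 68.5 to 77.6 CPM in Day 15 +Fgf, median log2 difference 1.35), and 3 of 5 tested surface ectoderm genes (313.4 to 405.2 against 23.7 to 58.0 CPM, median 0.75), beside 30.6% of all genes tested. Of the surface ectoderm sum in Day 15 +Wnt, Krt18 gave 312.5 ± 47.3 CPM (SD, n = 3), while Krt5, Krt14 and Trp63 had at most 2 reads in any of its libraries. Sox10 and Foxd3, on the neural crest list, had at most 3 reads there. Of 8 cardiac muscle genes, listed since Irx4 is known from the heart, 2 were tested, 1 of them lower in Day 15 +Fgf than in Day 12 +Fgf, and the list summed to 1.55 to 7.21 CPM in Day 15 +Fgf and to 15.7 to 20.7 CPM in Day 12 +Fgf. Most of the Day 12 sum was Actc1, at 16.6 ± 2.64 CPM, which fell to 0.401 ± 0.144 CPM, while the mean of Gata4 went from 0.127 ± 0.0636 to 2.02 ± 3.14 CPM (SD, n = 3) over the same days, a difference that did not pass the test (limma adjusted p = 0.232). The part of these cells in the results was not tested.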

How the data were processed

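Polyadenylated RNA of 15 optic tissue samples was sequenced from stranded libraries (TruSeq Stranded mRNA). The authors aligned reads to mm10 with TopHat2 (2.0.8b), counted them per entry of the UCSC mm10 transcriptome with Cuffdiff (Cufflinks 2.1.1) and normalized with edgeR (3.2.4), per the paper and the submitters' processing notes. The strand setting of the counting was not given in the sources used here. The deposited values are described by the authors as CPM. Column sums of this deposited signal ran from 936418 to 1075448, and every value was a whole multiple of 1 read (100% of non-zero values within 0.02), so reads were recovered, 12556998 to 16175450 per library.

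Here, log2(value + 0.3) was fitted with limma (3.58.1, R 4.3.3) as 5 group means over all 15 libraries, with eBayes trend and Benjamini-Hochberg adjustment, two-sided, over the 13845 of 23244 entries that reached 1 CPM, scaled to the column total, in 3 or more libraries. Count tests on recovered reads (edgeR 4.0.16 and DESeq2 1.42.0) were among 26 alternatives. The test was also run on simulated data, with changes in Day 15 +Wnt alone and the same setting of spread for every gene. The groups here differed far more widely, so that run does not vouch for the test in these data. Samples were grouped by title. Replicates differed by more than counting noise, so none was counted as a repeat of another. Exact intervals for ratios of reads are at 95% and cover counting error only. Gene positions and coding sequence came from GENCODE M21 (GRCm38), read with Python 3.11.15, and per-length levels used the transcript with the RefSeq accession of the files, found for all 6 genes.

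The members, the 5 gene lists and the 7 cell type marker lists were chosen with earlier results of these data known. Named genes were the 6 members, list genes with an adjusted p under 0.05 and a log2 difference of at least 1, up to 4 in each direction, the 3 genes most like each member (1 of those of Irx4 and of Irx6 is not reported here), and the nearest 3 genes on each side of each cluster that have an entry in the files. Gm20554 and D730050B12Rik inside IrxA, and the list genes whose levels are given as background (Axin2, Six3 and the cell type markers below that size or not tested), were named outside this rule.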

Additional observations from a re-analysis of the deposited data

Results flagged for a closer look

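The change from Day 12 to Day 15 differed between conditions for 5 Iroquois genes, by limma's test of the difference itself (+Wnt change minus +Fgf change in log2(CPM + 0.3), adjusted over all genes). The values were -2.15 for Irx2 (adjusted p = 1.90e-05), -0.63 for Irx3 (0.0459), -4.60 for Irx4 (3.13e-08), -2.33 for Irx5 (2.87e-05) and -2.83 for Irx6 (1.60e-05). Irx4 and Irx6 were tested only through Day 15 +Fgf, so their values here were close to given by the filter. Of all genes tested, 47.9% passed the same test. Irx4 went opposite ways, from 16 reads to 2 in +Wnt and from 1 read to 163 in +Fgf. Irx3 rose in both conditions, and its value was past the threshold in 11 of 26 alternatives.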

How the results depend on the processing

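Of 1368 values of the members under the 26 alternatives, 1301 kept their direction and their side of the threshold, 36 lost their call, 12 gained one and 19 changed sign. No call of the main analysis changed sign. A minimum of 10 CPM left Irx2 and Irx3 to test, by construction, and the members called were then 1 (Day 12 +Fgf against Day 10), 0 (Day 12 +Wnt against Day 10), 2 and 2 (Day 12 to Day 15 in +Fgf and in +Wnt), 1 and 2 (+Wnt against +Fgf at Day 12 and Day 15), 1 and 1 (Day 15 +Fgf and Day 15 +Wnt against Day 10) and 2 (difference of the changes). The single call in Day 12 +Wnt against Day 10, Irx5, was the least stable. The count there was 0 with a pseudocount of 0.05, without a filter, under quantile normalization, without the variance trend and with RNA integrity as a covariate, and 0 to 2 when 1 library was left out, with Irx5 at 0.35 to 0.72 over 25 alternatives (limma or count test adjusted p = 0.00589 to 0.268). The difference of the changes for Irx3 ran from -0.77 to -0.40 (adjusted p = 0.0173 to 0.503). Quantile normalization lowered the count to 2 for Day 12 to Day 15 in +Wnt and to 1 for Day 15 +Wnt against Day 10, where edgeR on recovered reads gave 5. The cause was not tested. The median over all genes was -0.11 in Day 15 +Wnt against Day 10 under quantile normalization and -0.00 without it, and moved by less in the other comparisons.

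Sign changes were all in values not called. They were Irx2 in Day 12 +Fgf against Day 10 with RNA integrity (0.12), Irx3 in Day 12 +Wnt and Day 15 +Fgf against Day 10 under quantile normalization (-0.06 and -0.21), Irx2 and Irx5 in Day 15 +Wnt against Day 10 under the same (-0.41 and -0.33), Irx6 in Day 15 +Wnt against Day 10 with edgeR (0.02) and the difference of the changes for Irx1 with a pseudocount of 1 (0.05). With 1 library left out, such values ran from -0.28 to 0.16 (Irx1), -0.09 to 0.29 (Irx3) and -0.22 to 0.14 (Irx4) in Day 12 +Wnt against Day 10, from -0.27 to 0.15 for Irx2 in Day 12 +Fgf against Day 10, from -0.13 to 0.01 for Irx5 from Day 12 to Day 15 in +Wnt, from -0.07 to 0.31 for Irx3 in Day 15 +Fgf against Day 10 and from -0.17 to 0.12 for Irx6 in Day 15 +Wnt against Day 10. With RNA integrity as a covariate, genes called over all those tested went from 7899 to 3591 for Day 12 to Day 15 in +Fgf and from 6636 to 3842 for the difference of the changes. RNA integrity was lower in Day 15 +Fgf than in Day 12 +Fgf in every library. The cause was not tested.

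With the replicate number as a replicate block, the members called were 4, 1, 6, 4, 4, 6, 4, 3 and 5 in the order above, no member call changed, and the count over all genes for Day 12 to Day 15 in +Fgf was 7837. Libraries with the same number did not deviate together (correlations of -0.25 to 0.24 over 30 pairs, 7 over 0.1), so the numbers were not read as pairs.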
